A study of Homo sapiens with 8 samples.

Results

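The 9 genes described here encode the enzymes and partner proteins that write, maintain, read and remove DNA methylation: DNMT1, UHRF1, DNMT3A, DNMT3B, TET1, TET2, TET3, TDG and MBD2. They were chosen by their symbols from the 60664 gene rows of the expression table, and each symbol matched 1 row. RNA-seq was performed on THP-1 cells, an established human monocytic leukemia line, as parental cells and as a DAC-resistant derivative. Both kinds of cells were treated for 6 days with DMSO, the solvent, or with 1 µM DAC, which gave 4 groups of 2 libraries each, labelled as biological replicates. The DAC-resistant cells had been selected by repeated pulses of DAC over months and then kept without the drug before use, and no genotype other than that of THP-1 is given for any group. With 1 resistant line, resistance cannot be told apart from other changes during its long culture.

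DNA methylation is copied after replication by DNMT1, which UHRF1 brings to hemimethylated CpG sites, while DNMT3A and DNMT3B place methyl groups on DNA that had none. The TET enzymes oxidize methylcytosine, TDG cuts out the most oxidized forms so that base excision repair can restore cytosine, and MBD2 binds methylated CpG sites and recruits a histone deacetylase complex. DAC (decitabine) is a cytidine analogue that is built into DNA and traps DNMT1 on it as protein. DNMT3A and TET2 are among the genes most often mutated in acute myeloid leukemia. The values below are levels of mRNA and do not measure protein, enzyme activity or methylation.

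Values were FPKM, reads scaled by exon length and by library total. Levels, ratios and shares set side by side between genes depend on that length, which was 15379 exon bases for DNMT1 and 5145 for UHRF1. Reads on genes, recovered from the steps of these values, numbered 27461406 to 31896773 per library, with the lowest 2 in the parental libraries with DAC (27461406 and 27474754, against at least 30040575 in the others). These also had the most genes above 0 (30957 and 30999, against 26069 to 27437). Depth and the parental DAC group therefore cannot be told apart. The monocytic identity of the cells was visible in all libraries: 9 of 12 monocytic markers reached 1 FPKM in every library, while 5 of 18 markers of T, B, erythroid, epithelial, fibroblast and endothelial cells reached 1 FPKM in any. Each comparison was fitted with limma on log2(FPKM + 1) over the 14899 genes that reached 1 FPKM in 2 or more of the 8 libraries, and a gene was called where its Benjamini-Hochberg adjusted p was under 0.05. A fold change below is on this scale, which understates changes of low genes, and its error is the standard error (SE) of the fit. The ± after a mean is the SD of 2 libraries. With 2 libraries against 2, an exact permutation test cannot go below a two-sided p of 0.333, so each call draws on a variance estimate that limma moderates over all genes. In RNA from bulk cultures, fewer cells of a type and less RNA per cell cannot be told apart.

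All 9 genes passed the filter. In parental cells with DMSO, UHRF1 (27.6 ± 0.34 FPKM) and DNMT1 (22.0 ± 0.22 FPKM) had the highest levels, above 90.7% and 87.8% of the genes tested. MBD2 (14.01 ± 0.086), TDG (10.4 ± 0.026) and TET3 (9.37 ± 0.20) followed, then DNMT3A (4.62 ± 0.097) and TET2 (4.27 ± 0.17), whose libraries all lay between 4.15 and 4.69 FPKM. DNMT3B (2.68 ± 0.35 FPKM) and TET1 (0.48 ± 0.075 FPKM) were lowest. TET1 reached 1 FPKM in 0 of 4 parental and 4 of 4 DAC-resistant libraries, and so was tested only because of its level in the DAC-resistant cells.

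**Figure D1:**
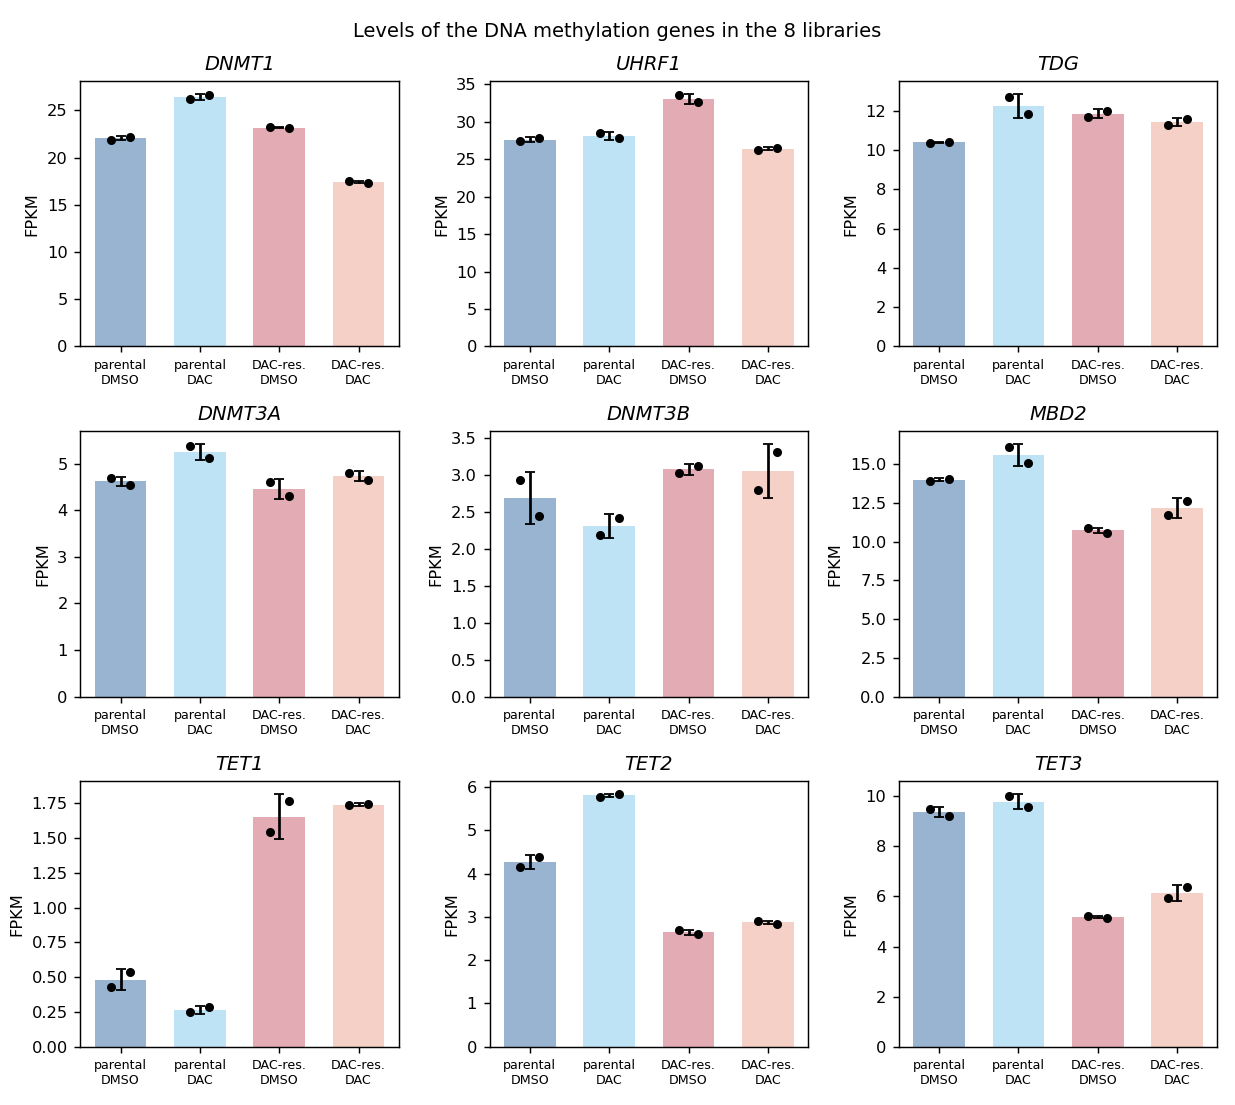
Level of each gene in FPKM (vertical axes, each starting at 0 with its own scale) in the 4 groups. Bars are means, error bars the SD of 2 libraries, and points the libraries. DNMT1 was lowest in DAC-resistant cells with DAC, TET1 was high in all 4 DAC-resistant libraries, and TET2, TET3 and MBD2 were low in them.

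In parental cells, DAC raised 5 of the 9 genes (DNMT1, DNMT3A, TET2, TDG and MBD2) and lowered none, where 57.7% of all genes tested were called, 33.6% higher and 24.1% lower. The count was 3 without either parental DMSO library, parental DAC 1 or either DAC-resistant DMSO library, and 4 without any of the other 3 libraries, each left out alone. It was also 3 with no filter, with a mean of at least 5 FPKM and after quantile or upper-quartile scaling, and 6 with voom. The shares of all genes called under these settings are not given. A change of this count thus cannot be told apart from a change over all genes. Under some of the other settings genes were also called lower: TET1 in TPM, after quantile normalization, with a pseudocount of 0.1 and with voom, and UHRF1 after upper-quartile scaling. In DAC-resistant cells, DAC lowered DNMT1 and UHRF1 and raised TET3, so 3 of 9 genes were called, where 11.2% of all genes were (5.88% higher, 5.35% lower). DAC-resistant cells with DMSO had more UHRF1, TET1 and TDG and less TET2, TET3 and MBD2 than parental cells with DMSO, 6 of 9 genes beside 57.5% of all genes (31.3% higher, 26.2% lower). With DAC in both, 7 of 9 genes were called (TET1 and DNMT3B higher, DNMT1, UHRF1, TET2, TET3 and MBD2 lower) beside 67% of all genes (32% higher, 35.1% lower). Both counts between the lines include TET1, which the filter kept only through its level in the DAC-resistant cells. The DAC effects of the cell lines differed for DNMT1, UHRF1, TET2 and TDG, 4 of 9 genes beside 49.3% of all genes (20.9% higher, 28.4% lower), each with the lower effect in DAC-resistant cells. The comparisons share libraries: each group enters the DAC effect of its cell line and 1 of the comparisons between cell lines.

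The direction of calls over all genes moved with scaling. In parental cells, 58.2% of the calls with DAC were higher as deposited, 45.1% after quantile normalization and 46.4% after upper-quartile scaling. In DAC-resistant cells, 52.4% were higher as deposited and 65.9% after rescaling to TPM. For the difference between the DAC effects, 42.4% were higher as deposited, 53.8% after quantile normalization and 52.9% after upper-quartile scaling. Between the lines with DMSO, 54.4% were higher as deposited, 61.1% in TPM and 44.7% after upper-quartile scaling, and with DAC 47.7% were higher as deposited and 56.5% in TPM. The median gene itself moved by over 0.1 on the log2 scale in 3 cases: by -0.11 for DAC in parental cells and by 0.10 for the difference between the DAC effects, both after quantile normalization, and by 0.11 between the lines with DAC in TPM. Changes were therefore also taken relative to the median gene of each scaling. With DAC in parental cells, TET2 lay 0.31 to 0.35 and DNMT1 0.17 to 0.22 above the median gene over the 4 scalings, TDG 0.14 to 0.17, DNMT3A 0.09 to 0.11 and MBD2 0.07 to 0.089, while UHRF1 lay at -0.053 to 0.0014. TET1 lay at -0.53 to -0.23, DNMT3B at -0.26 to -0.21 and TET3 at -0.015 to 0.016. In the difference between the DAC effects, DNMT1 lay at -0.61 to -0.57, UHRF1 at -0.32 to -0.27, TET2 at -0.25 to -0.22 and TDG at -0.22 to -0.19, although the call of TET2 was lost under all 3 rescalings and that of TDG under 2 of them.

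**Figure D2:**
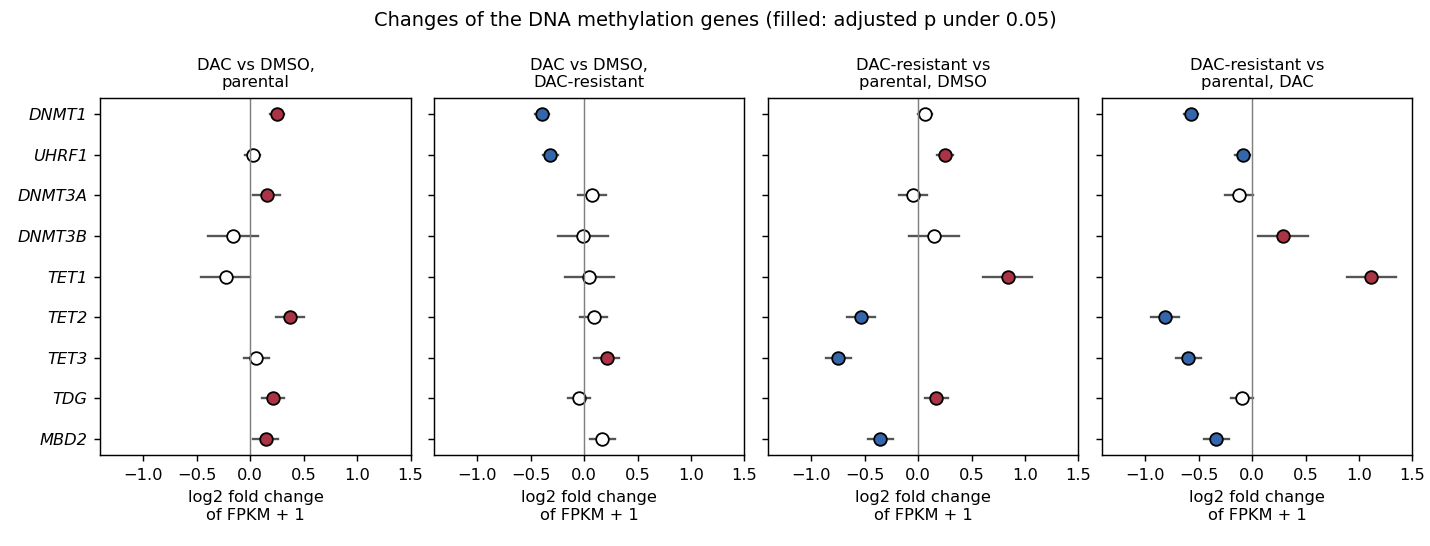
Log2 fold change of FPKM + 1 (horizontal axes) for each gene in 4 comparisons, with 95% intervals of the limma fit as lines. Filled points had an adjusted p under 0.05 (red higher, blue lower), and open points did not. TET1 passed the filter only through its level in the DAC-resistant cells. DNMT1 lies right of 0 with DAC in parental cells (0.25) and left of 0 in DAC-resistant cells (-0.39), and TET1 lies opposite to TET2 and TET3 in both comparisons between the cell lines.

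The maintenance pair came first. DNMT1 (ENSG00000130816, hg38 chr19:10133342-10231286, minus strand), the maintenance methyltransferase, stood at 21.9 and 22.2 FPKM in DMSO-treated parental cells and at 26.2 and 26.7 FPKM with DAC. In DAC-resistant cells it stood at 23.2 and 23.1 FPKM with DMSO and at 17.5 and 17.3 FPKM with DAC. Both parental libraries with DAC were thus the highest of the 8 and both DAC-resistant libraries with DAC the lowest, with no overlap between groups. DAC raised DNMT1 by 0.25 ± 0.027 (SE) in parental cells (limma, adjusted p = 0.000315), a ratio of mean FPKM of 1.1996. It lowered DNMT1 by 0.39 on the log2 scale in DAC-resistant cells (SE 0.027, adjusted p = 0.00115), a ratio of 0.753. The difference between these effects was -0.64 ± 0.039 (limma interaction, adjusted p = 3.69e-05), and its sign and call (adjusted p under 0.05) held under every other processing run. Without drug, DAC-resistant and parental cells differed by 0.07 (95% interval 0.0028 to 0.134, adjusted p = 0.0712), a direction that turned under quantile and upper-quartile scaling and that passed in TPM (adjusted p = 0.00773) and with voom (0.0255). With DAC in both, DAC-resistant cells had less DNMT1 by 0.57 (SE 0.027, adjusted p = 4.7e-06), a ratio of 0.659. These values rest on 8170 to 11273 reads per library. S1PR2, a gene on the same strand, shares 83 exon bases (0.54%) with DNMT1.

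UHRF1 (ENSG00000276043, chr19:4903080-4962154, plus strand), which recognizes hemimethylated CpG sites, stood at 27.4 and 27.9 FPKM in DMSO-treated parental cells and at 28.5 and 27.8 FPKM with DAC. These groups overlapped, with a fold change of 0.03 (95% interval -0.0442 to 0.0967, limma adjusted p = 0.476) whose sign turned under quantile and upper-quartile scaling, where it passed under the latter (-0.087, adjusted p = 0.0375). In DAC-resistant cells UHRF1 stood at 33.5 and 32.6 FPKM with DMSO, the highest 2 of the 8 libraries, and at 26.2 and 26.5 FPKM with DAC, the lowest 2. DAC lowered it there by 0.31 (SE 0.029, adjusted p = 0.00245), and the difference from the parental effect was -0.34 ± 0.041 (adjusted p = 0.000754). DAC-resistant cells with DMSO had more UHRF1 than parental cells by 0.25 ± 0.029 (adjusted p = 0.000431). With DAC in both, the difference was -0.09 ± 0.029 (adjusted p = 0.0323), a call that rescaling to TPM reversed in sign (0.034, adjusted p = 0.335) and that was lost without parental DAC 1, DAC-resistant DAC 1 or DAC-resistant DAC 2 (adjusted p = 0.115, 0.123 and 0.0782). UHRF1 was measured with 3927 to 5448 reads per library.

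The ratio of UHRF1 to DNMT1 in FPKM showed where the pair parted. It was 1.2501 and 1.2547 in DMSO-treated parental cells, 1.09 and 1.04 with DAC, 1.44 and 1.41 in DMSO-treated DAC-resistant cells, and 1.498 and 1.53 with DAC. In parental cells DNMT1 rose while UHRF1 did not pass the test on FPKM as deposited, and in DAC-resistant cells both fell, DNMT1 somewhat further.

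DNMT1 and UHRF1 are made mainly in dividing cells, so a list of 15 genes of DNA replication and 10 of mitosis was read beside them. With DAC in parental cells, 2 replication genes rose and 8 fell (median fold change -0.13), beside a median of 0.06 over all genes. In DAC-resistant cells, 0 rose and 11 fell (median -0.29, range -0.42 to -0.11), beside a median of 0.01 over all genes. Of the mitosis genes, 3 rose and 5 fell in parental cells and 2 rose and 2 fell in DAC-resistant cells. Of all genes, 33.6% rose and 24.1% fell in parental cells, and 5.88% and 5.35% in DAC-resistant cells. The fold changes of DNMT1 (-0.39) and UHRF1 (-0.31) in DAC-resistant cells thus lay within the range of the replication list. In parental cells the rise of DNMT1 (0.25) lay above the highest of the 15 replication genes (0.17). The ratio of DNMT1 to the geometric mean of the replication list was 1.02 and 1.04 in DMSO-treated parental cells and 1.40 and 1.45 with DAC, against 1.02 and 1.05 in DMSO-treated DAC-resistant cells and 0.946 and 0.966 with DAC. The same ratio for UHRF1 was 1.28 and 1.299, then 1.52 and 1.51 with DAC, in parental cells, and 1.47 and 1.48, then 1.42 and 1.48 with DAC, in DAC-resistant cells. Both genes thus stood higher against the replication list with DAC in parental cells. Between the lines with DMSO, 8 replication genes were higher and 4 lower in DAC-resistant cells (median 0.095). Of the mitosis genes, 9 were higher and 1 lower there (median 0.22), beside 31.3% and 26.2% of all genes. The part of the number of dividing cells in these values was not tested.

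**Figure D3:**
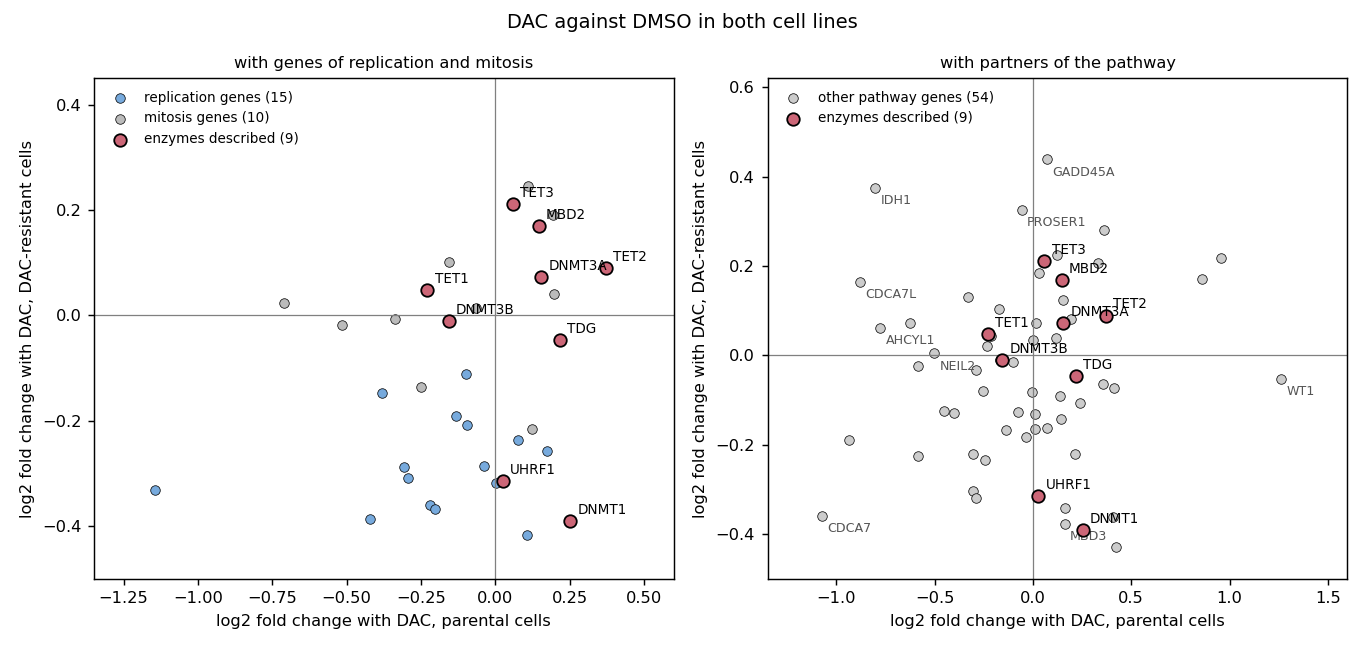
Log2 fold change with DAC in parental cells (horizontal) against that in DAC-resistant cells (vertical), on FPKM + 1. Red points are the 9 genes described, beside genes of replication (blue) and mitosis (grey) on the left and 54 other genes of the pathway on the right, with the named ones labelled. DNMT1 (0.25 and -0.39) and UHRF1 (0.03 and -0.31) lie at the height of the replication genes, all 15 of which lie under 0 on the vertical axis.

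For UHRF1, RefSeq (GRCh38.p14) gives 3 start sites whose upstream windows could be read, and the 250 bases before 1 of them that overlap no GENCODE exon (chr19:4909894-4910143, plus strand) are shown because the window holds an E2F-type motif, as promoters of replication genes often do. A second of the 3 windows also holds 1, the third does not, and the window of DNMT1 holds none. Capitals mark that motif. The letters searched on both strands were TTTCCCGC, TTTGGCGC, TTTCGCGC and TTTGCCGC, and 2.79% of 35114 promoter windows of this length hold at least 1 of them. A match is a description of the letters and not a bound site.
UHRF1: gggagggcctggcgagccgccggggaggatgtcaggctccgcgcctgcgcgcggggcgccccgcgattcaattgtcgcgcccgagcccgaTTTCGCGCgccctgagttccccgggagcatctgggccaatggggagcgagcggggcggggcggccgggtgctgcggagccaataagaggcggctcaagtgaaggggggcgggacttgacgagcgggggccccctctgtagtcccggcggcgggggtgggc

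The de novo enzymes followed. DNMT3A (ENSG00000119772, chr2:25227855-25342590, minus strand) stood at 4.69 and 4.55 FPKM in DMSO-treated parental cells, 5.38 and 5.13 with DAC, 4.61 and 4.30 in DMSO-treated DAC-resistant cells, and 4.81 and 4.66 with DAC. The parental libraries with DAC were the highest, and DAC raised DNMT3A by 0.15 ± 0.054 (limma, adjusted p = 0.0476). This call was at the threshold: it was lost under 14 of 16 alternatives, with adjusted p-values of up to 0.495, among them every fit without 1 of the 8 libraries (0.0534 to 0.178). In DAC-resistant cells the fold change with DAC was 0.07 (95% interval -0.0577 to 0.203), and the other comparisons did not pass either, except that with voom DAC-resistant cells with DAC were lower than parental ones by 0.15 (adjusted p = 0.0246).

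DNMT3B (ENSG00000088305, chr20:32762385-32809359, plus strand), which many leukemia and embryonic cells express highly, stood at 2.93 and 2.44 FPKM in DMSO-treated parental cells, 2.18 and 2.41 with DAC, 3.02 and 3.12 in DMSO-treated DAC-resistant cells, and 2.79 and 3.31 with DAC. Replicates differed by up to 0.52 FPKM, and the 95% interval for DAC in DAC-resistant cells ran from -0.244 to 0.224. With DAC in both lines, DAC-resistant cells were higher by 0.29 ± 0.098 (adjusted p = 0.0338), which did not pass under 8 of 16 alternatives, among them the fits without either parental DAC library, either DAC-resistant DMSO library or DAC-resistant DAC 2 (adjusted p = 0.0529 to 0.172). DNMT3B was measured with 278 to 469 reads per library, the fewest of the 9 genes in every DAC-resistant library and the fewest after TET1 in every parental one. DNMT1 made up 74.2% to 77.9% of the summed FPKM of the 3 methyltransferases in parental libraries, 75.3% and 75.7% in DMSO-treated DAC-resistant cells, and 69.7% and 68.5% with DAC.

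The TET enzymes separated the cell lines in opposite directions. DAC-resistant cells had 3.43 times the mean TET1 FPKM of parental cells with DMSO and 6.57 times with DAC, while TET2 stood at 0.619 and 0.495 times and TET3 at 0.552 and 0.628 times the parental level. The windows of 250 bases before their first RefSeq start sites (GRCh38.p14, plus strand, with no GENCODE exon in them) are shown because these genes encode enzymes that act on CpG sites. Capitals mark CpG. TET1 (chr10:68560087-68560336) and TET2 (chr4:105145625-105145874) hold 9 and 10 CpG sites, near the median of 11 over 35114 windows, and TET3 (chr2:73984660-73984909) holds 37, more than 96.0% of windows. The later starts differ from these: the window of a second TET2 start (chr4:105146626-105146875), which lies wholly in GENCODE exons and is not printed, holds 34, those of 2 later TET1 starts hold 4 and 11, and that of a later TET3 start holds 27. Methylation was not measured in these libraries.
TET1: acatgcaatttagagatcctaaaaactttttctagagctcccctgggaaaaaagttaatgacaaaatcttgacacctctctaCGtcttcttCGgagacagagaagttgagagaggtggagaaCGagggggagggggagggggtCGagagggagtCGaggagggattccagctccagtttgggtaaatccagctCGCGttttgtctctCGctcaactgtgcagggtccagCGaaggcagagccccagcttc
TET2: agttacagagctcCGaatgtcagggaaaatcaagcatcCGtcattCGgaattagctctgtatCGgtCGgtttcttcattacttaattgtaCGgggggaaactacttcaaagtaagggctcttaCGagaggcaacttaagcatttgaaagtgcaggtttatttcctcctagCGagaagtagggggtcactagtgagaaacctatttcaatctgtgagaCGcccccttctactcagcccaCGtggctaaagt
TET3: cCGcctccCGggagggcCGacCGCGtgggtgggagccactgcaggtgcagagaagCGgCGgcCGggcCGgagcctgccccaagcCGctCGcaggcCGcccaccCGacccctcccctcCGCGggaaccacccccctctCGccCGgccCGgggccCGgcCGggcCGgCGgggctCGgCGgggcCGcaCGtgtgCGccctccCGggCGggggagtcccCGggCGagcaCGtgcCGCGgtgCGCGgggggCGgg

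TET1 (ENSG00000138336, chr10:68560337-68694487, plus strand), the family member best known from embryonic stem cells, stood at 0.43 and 0.54 FPKM in DMSO-treated parental cells (131 and 156 reads) and at 0.25 and 0.28 FPKM with DAC (65 and 75 reads). In DAC-resistant cells it stood at 1.54 and 1.77 FPKM with DMSO (467 and 511 reads) and at 1.73 and 1.75 FPKM with DAC (532 and 514 reads). Every DAC-resistant library was above every parental library, and both parental libraries with DAC were below both with DMSO. DAC-resistant cells were higher by 0.84 ± 0.096 with DMSO and by 1.12 ± 0.096 with DAC. Since the filter kept TET1 only through these libraries, the tests of these values are taken from the limma fit with no filter (adjusted p = 0.00191 and 0.000416). A stricter rule needs 1 or more in log2 fold change together with p no higher than 0.01 before adjustment. On log2(FPKM + 1) it was met among the 9 genes by TET1 between the lines with DAC, which the filter had helped to choose, and which of the genes passed 1 in size depended on the scale: with voom, TET1 between the lines with DMSO (1.78) and TET2 between them with DAC (-1.01) did so too. Of all genes, 9.31% passed that rule with DAC in parental cells, 0.235% with DAC in DAC-resistant cells, 8.73% between the lines with DMSO, 14.5% between them with DAC, and 10.6% for the difference between the DAC effects. The fall with DAC in parental cells, -0.23 (95% interval -0.458 to 0.0012, adjusted p = 0.0813), depended on the processing: with voom on recovered reads it was -0.85 ± 0.29 (adjusted p = 0.0107), and with a pseudocount of 0.1 it was -0.67 (adjusted p = 0.0235). It also passed in TPM (-0.48, adjusted p = 0.0356) and after quantile normalization (-0.50, adjusted p = 0.00445). In DAC-resistant cells the fold change with DAC was 0.05 (95% interval -0.182 to 0.277). The difference between the effects was 0.28 ± 0.14 (adjusted p = 0.136) on FPKM + 1 and 0.93 ± 0.31 (adjusted p = 0.0116) with voom, and after quantile normalization it was 0.54 (adjusted p = 0.0167).

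TET2 (ENSG00000168769, chr4:105145875-105279816, plus strand), a frequent target of mutation in myeloid disease, stood at 4.15 and 4.39 FPKM in DMSO-treated parental cells and at 5.78 and 5.83 FPKM with DAC. In DAC-resistant cells it stood at 2.69 and 2.60 FPKM with DMSO and at 2.90 and 2.85 FPKM with DAC, below every parental library. DAC raised TET2 by 0.37 ± 0.054 in parental cells (limma, adjusted p = 0.00121), a ratio of 1.36 and the largest rise of the 9 genes there. In DAC-resistant cells the fold change was 0.09 (95% interval -0.0399 to 0.219, adjusted p = 0.351). The difference between the effects was -0.28 ± 0.076 (adjusted p = 0.0216), which 8 of 15 alternatives lost, with adjusted p-values of up to 0.0764. Among them were all 3 rescalings, TPM (0.0626), quantile (0.0649) and upper-quartile (0.0764), and the fits without parental DMSO 1, either parental DAC library, DAC-resistant DMSO 1 or DAC-resistant DAC 2 (0.0539 to 0.0701). DAC-resistant cells had less TET2 by 0.53 with DMSO (SE 0.054, adjusted p = 0.000228) and by 0.81 with DAC (SE 0.054, adjusted p = 2.08e-05), and both calls (adjusted p under 0.05) held under every other processing that tested the gene.

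TET3 (ENSG00000187605, chr2:73984910-74108176, plus strand) had the highest TET level in every library. It stood at 9.51 and 9.22 FPKM in DMSO-treated parental cells, 10.0 and 9.58 with DAC, 5.20 and 5.14 in DMSO-treated DAC-resistant cells, and 5.93 and 6.37 with DAC. DAC-resistant cells had less TET3 by 0.75 with DMSO (SE 0.049, adjusted p = 3.33e-05) and by 0.59 with DAC (SE 0.049, adjusted p = 5.88e-05). In parental cells the fold change with DAC was 0.06 (95% interval -0.0598 to 0.176), with a sign that turned under quantile and upper-quartile scaling. In DAC-resistant cells DAC raised TET3 by 0.21 ± 0.049 (adjusted p = 0.0427), a call lost under 13 of 17 alternatives, with adjusted p-values of up to 0.183, among them every fit without 1 of the 8 libraries (0.0668 to 0.183). The difference between the effects was 0.15 ± 0.069 (adjusted p = 0.113), and it passed in TPM (adjusted p = 0.0395), after quantile (0.0338) and upper-quartile scaling (0.0245) and with voom (0.0340). A long noncoding RNA gene on the same strand shares 390 exon bases (3.01%) with TET3 and was at 0 FPKM in every library.

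The sum of the 3 TET genes was 14.1 FPKM in both parental libraries with DMSO, 16.0 and 15.7 with DAC, 9.43 and 9.51 in DMSO-treated DAC-resistant cells, and 10.6 and 10.97 with DAC. TET1 made up 3.05% and 3.78% of it in DMSO-treated parental cells, 1.53% and 1.81% with DAC, and 15.9% to 18.6% in the 4 DAC-resistant libraries. TET3 made up 61.0% to 67.5% in parental and 54.1% to 58.1% in DAC-resistant libraries, without overlap. The ratio of DNMT1 to the TET sum was 1.554 and 1.569 in DMSO-treated parental cells, 1.63 and 1.70 with DAC, 2.46 and 2.43 in DMSO-treated DAC-resistant cells, and 1.66 and 1.58 with DAC. DAC-resistant cells with DMSO thus stood apart from the other 3 groups in this ratio.

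**Figure D4:**
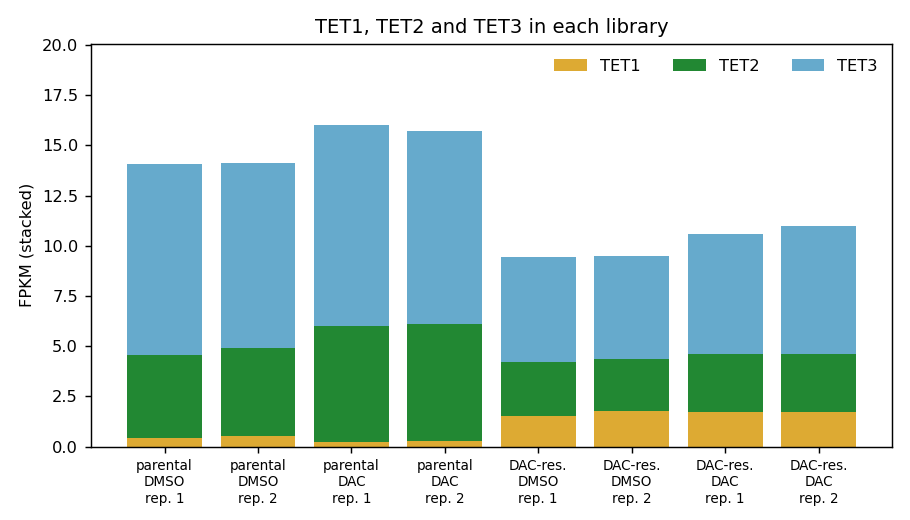
FPKM of TET1, TET2 and TET3, stacked (vertical axis), in each of the 8 libraries (horizontal axis). The parental libraries sum to 14.1 to 16.0 FPKM and the DAC-resistant ones to 9.43 to 10.97, where the TET1 segment is larger.

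TET2, TET3 and MBD2 moved between the lines in the direction of the monocytic markers. Of the 12 markers, 10 rose and 1 fell with DAC in parental cells (33.6% and 24.1% of all genes), 1 rose and 0 fell with DAC in DAC-resistant cells (5.88% and 5.35%), and 9 were lower and 1 higher in DAC-resistant than in DMSO-treated parental cells (26.2% and 31.3%). Their summed level was 354 to 355 FPKM in DMSO-treated parental cells, 563 to 568 with DAC, 190 to 193 in DMSO-treated DAC-resistant cells, and 208 to 212 with DAC. The 18 markers of other cells summed to 4.92 and 5.06, 17.0 and 18.7, 8.56 and 11.5, and 5.89 and 7.07 FPKM in these groups, in the same order. The part of monocytic maturation in the levels of TET2, TET3 and MBD2 was not tested.

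The genes whose group means were most like those of each TET gene were found over the 4 groups by the root-mean-square difference of centred log2 values. For TET1 they were AASS (0.014), ANO5 (0.020) and ATF6 (0.027), out of 132 genes within 0.1. For TET2 they were RAB15 (0.017), RAPGEF1 (0.020) and SPI1 (0.023), out of 273, and for TET3 they were POU2F2 (0.015), CARD8-AS1 (0.020) and SNORA7B (0.020), out of 237. SPI1, the myeloid transcription factor PU.1, is also 1 of the 12 monocytic markers. With 4 group means, many genes share a pattern. These values are on log2(FPKM + 1), which shrinks changes of low genes such as TET1. The genes most like TET1 here thus need not share its ratios of FPKM.

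TDG (ENSG00000139372, chr12:103965822-103988874, plus strand), the glycosylase that removes formylcytosine and carboxylcytosine, stood at 10.4 FPKM in both parental libraries with DMSO and at 12.7 and 11.8 FPKM with DAC. In DAC-resistant cells it stood at 11.7 and 11.99 FPKM with DMSO and at 11.3 and 11.6 FPKM with DAC. The parental libraries with DMSO were the lowest of the 8. DAC raised TDG by 0.22 ± 0.043 in parental cells (limma, adjusted p = 0.00525), and in DAC-resistant cells the fold change was -0.05 (95% interval -0.151 to 0.0578). The difference between the effects was -0.26 ± 0.061 (adjusted p = 0.0122). DAC-resistant cells with DMSO were higher by 0.17 ± 0.043 (adjusted p = 0.0140). These 3 calls were lost under quantile and upper-quartile scaling, with adjusted p-values of 0.0581 and 0.0779, 0.0624 and 0.0736, and 0.119 and 0.163. The difference between the lines with DMSO also missed the threshold without either parental DMSO library or DAC-resistant DMSO 2 (0.0532 to 0.0715), and the lines differed with DAC once parental DAC 2 was left out (-0.14, adjusted p = 0.0347). A processed pseudogene, TDGP1, had 0.24 to 1.27 FPKM in the same table, and how reads were shared between the copies is uncertain. A long noncoding RNA gene on the same strand, for which no value is given, shares 168 exon bases (3.44%) with TDG.

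MBD2 (ENSG00000134046, chr18:54151606-54224669, minus strand), the methyl-CpG reader, stood at 13.9 and 14.1 FPKM in DMSO-treated parental cells, 16.1 and 15.1 with DAC, 10.9 and 10.6 in DMSO-treated DAC-resistant cells, and 11.7 and 12.6 with DAC. Every DAC-resistant library was below every parental library. DAC-resistant cells had less MBD2 by 0.36 with DMSO (SE 0.049, limma adjusted p = 0.000914) and by 0.33 with DAC (SE 0.049, adjusted p = 0.000936), and both calls (adjusted p under 0.05) held under every other processing. The DAC effect on MBD2 was 0.15 ± 0.049 in parental cells (adjusted p = 0.0392) and 0.17 ± 0.049 in DAC-resistant cells (adjusted p = 0.0769, which passed in TPM, with a mean of at least 5 FPKM and with voom), with a difference of 0.02 (95% interval -0.142 to 0.188). The parental call was lost under 11 of 17 alternatives, with adjusted p-values of up to 0.581, among them the fits without either parental DMSO library, parental DAC 1 or either DAC-resistant DMSO library (0.0575 to 0.176).

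Beyond these 9 genes, a list of 62 genes of the same pathway was examined, of which 54 passed the filter. With DAC in parental cells, 14 rose and 21 fell (33.6% and 24.1% of all genes), and in DAC-resistant cells 5 rose and 12 fell (5.88% and 5.35%). The latter count of 17 became 11 without either parental DAC library, 5 and 9 without DAC-resistant DMSO 1 and 2, 9 and 6 without DAC-resistant DAC 1 and 2, 8 with no filter and 28 with voom. How the share of all genes called moved under these settings is not given. In DAC-resistant against parental cells, 23 were higher and 14 lower with DMSO (31.3% and 26.2% of all genes), and 18 were higher and 15 lower with DAC (32% and 35.1%). The median fold change of the list was -0.02, -0.06, 0.08 and 0.06 in these 4 comparisons, beside 0.06, 0.01, 0.02 and -0.03 over all genes. The DAC effects differed for 31 of the 54 genes, the effect in DAC-resistant cells being the higher one for 17 and the lower one for 14, beside 20.9% and 28.4% of all genes. The same shares of all genes stand behind the counts of the smaller groups that follow.

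Partners of methylation, 11 tested, leaned downward with DAC in both lines. They numbered 1 higher and 7 lower in parental cells, and 1 higher and 5 lower in DAC-resistant cells. Of the 15 replication genes, 2 rose and 8 fell in parental cells, and 0 rose and 11 fell in DAC-resistant cells. The part of dividing cells in these counts was not tested. CDCA7, which with the remodeler HELLS helps DNMT1 reach heterochromatin, stood at 13.9 and 14.4 FPKM in DMSO-treated parental cells and at 5.97 and 6.44 with DAC. In DAC-resistant cells it stood at 18.8 and 18.4 FPKM with DMSO and at 14.5 and 14.1 with DAC. CDCA7 thus fell by 1.07 with DAC in parental cells (limma, adjusted p = 4.32e-06). In the DAC-resistant line it fell by 0.36 (adjusted p = 0.00623). Its relative CDCA7L stood at 20.9 and 20.3 FPKM, then 10.4 and 11.1 with DAC, and was higher in DAC-resistant cells at 32.1 and 34.9 FPKM, then 36.4 and 38.9 with DAC, a fold change of 1.72 between the lines with DAC (adjusted p = 8.67e-07). PCNA, the replication clamp that DNMT1 binds, fell by 0.29 and 0.32 with DAC in parental and DAC-resistant cells (adjusted p = 0.000848 and 0.00595), and was named outside the rule for named genes after its values were seen.

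Readers of methylation and their NuRD partners, 15 tested, split evenly in parental cells, with 5 higher and 5 lower with DAC, and with 0 higher and 2 lower in DAC-resistant cells. MBD3, a NuRD subunit related to MBD2, stood at 7.07 and 6.84 FPKM in DMSO-treated parental cells, 7.59 and 8.21 with DAC, 4.75 and 3.93 in DMSO-treated DAC-resistant cells, and 3.12 and 3.08 with DAC. It was lower in DAC-resistant cells by 1.12 with DAC (limma, adjusted p = 3.18e-05). With DMSO, MBD3 and MBD2 were 0.58 and 0.36 lower in DAC-resistant cells. The readers as a group did not share this direction: 7 were higher and 4 lower with DMSO, and 4 higher and 5 lower with DAC, and the NuRD subunits GATAD2B, CHD4 and RBBP7, named after their values were seen, were higher with DMSO by 0.40, 0.37 and 0.35.

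Of 8 tested genes that supply, recruit or modify TET enzymes, 5 were higher and 0 lower in DAC-resistant than in DMSO-treated parental cells (31.3% and 26.2% of all genes), and 4 were higher and 2 lower with DAC in both (32% and 35.1%). With DAC, 2 rose and 2 fell in parental cells and 3 rose and 0 fell in DAC-resistant cells. IDH1, which makes the 2-oxoglutarate that TET enzymes need, stood at 55.1 and 55.8 FPKM in DMSO-treated parental cells, 31.1 and 31.7 with DAC, 63.9 and 66.02 in DMSO-treated DAC-resistant cells, and 84.5 and 84.6 with DAC. DAC lowered IDH1 by 0.80 in parental cells (limma, adjusted p = 1.46e-06) and raised it by 0.37 in DAC-resistant cells (adjusted p = 0.0011). WT1, a transcription factor that recruits TET2, rose with DAC in parental cells from 1.88 and 2.18 to 6.41 and 6.10 FPKM, by 1.26 (adjusted p = 2.8e-05). It stood between 2.33 and 2.68 FPKM in all 4 DAC-resistant libraries. PROSER1, which links TET2 and OGT, stood at 7.01 to 7.44 FPKM in parental libraries, at 12.01 and 12.7 in DMSO-treated DAC-resistant cells and at 15.2 and 16.2 with DAC, where it was higher than in parental cells by 1.05 (adjusted p = 3.12e-06).

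Of 13 tested genes of excision repair, 5 were higher and 5 lower in DMSO-treated DAC-resistant cells than in parental ones, and 2 were higher and 6 lower with DAC in both. With DAC against DMSO, 4 rose and 3 fell in parental cells, and 1 rose and 3 fell in DAC-resistant cells (medians 0.07 and -0.08). NEIL2, a glycosylase that can act after TDG, stood at 3.32 and 2.71 FPKM in DMSO-treated parental cells and 1.56 and 2.12 with DAC, and at 0.40 to 0.54 FPKM in the DAC-resistant libraries, so it was tested only because of its parental level. It was lower in DAC-resistant cells by 1.45 with DMSO (limma with no filter, adjusted p = 0.00133). GADD45A, a stress gene that has been tied to active demethylation, stood at 14.5 to 15.6 FPKM in all 4 parental libraries, at 6.52 and 6.24 in DMSO-treated DAC-resistant cells, and at 8.46 and 9.57 with DAC. It was lower in DAC-resistant cells by 1.10 with DMSO (adjusted p = 1.36e-05), and DAC raised it there by 0.44 (adjusted p = 0.00794).

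Of 7 tested genes listed under the supply of S-adenosylmethionine, the methyl donor, 2 rose and 4 fell with DAC in parental cells, and 0 rose and 2 fell in DAC-resistant cells. Between the lines, 1 was higher and 4 lower in DAC-resistant cells with DMSO (median -0.10). With DAC in both, 2 were higher and 2 lower (median 0.05). AHCYL1, counted in this list, is a relative of the hydrolase that clears the used donor and not that enzyme. Its level is thus no measure of the supply of the donor. AHCYL1 stood at 71.4 and 70.3 FPKM in DMSO-treated parental cells, 41.8 and 40.1 with DAC, 87.0 and 85.0 in DMSO-treated DAC-resistant cells, and 87.7 and 91.9 with DAC. DAC lowered it by 0.78 in parental cells (limma, adjusted p = 5.31e-06), and with DAC it was higher in DAC-resistant cells by 1.11 (adjusted p = 7.41e-07). The 14 changes of at least 1 in size among the 9 pathway genes named by rule kept an adjusted p under 0.05 under every other processing that tested the gene. The genes were named for such changes in these same libraries, so the kept calls are no independent support. NEIL2 is among them and was tested only because of its parental level.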

How the data were processed

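RNA-seq was made from 8 libraries, 2 for each of 4 groups. According to the study's methods, the authors prepared libraries with an mRNA kit, checked reads with FastQC, trimmed them with Cutadapt 1.9.1, aligned them to hg38 with Hisat2 2.1.0, handled alignments with SAMtools 1.6 and counted them with HTSeq 0.13.5. Whether counting used the strand is not given in the sources used here. The authors deposited FPKM values multiplied by 1000, and 0 columns belonged to no listed sample.

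Values were divided by 1000. With GENCODE 44 exon lengths, 86.7% of gene values were whole reads (within 0.01), and 98.5% of the genes above 0 received reads, which gave depth and a voom alternative. DNMT3B values correspond to 4630 exon bases, against 6876 in GENCODE 44. Replicates shared 0 identical values and differed beyond sampling noise (chi-square of 3.81 to 4.03 per gene).

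Log2(FPKM + 1) of the 14899 genes with at least 1 FPKM in 2 libraries was fitted with limma 3.58.1 (R 4.3.3) as 4 group means, with a variance trend (prior degrees of freedom 2.50, residual 4), and p-values were Benjamini-Hochberg adjusted over all genes tested. A second, stricter rule takes the limits of the study's volcano plots (p no higher than 0.01 before adjustment, log2 fold change no smaller than 1). In simulated data for DAC in parental cells over 14899 genes, 59% of 100 genes changed by 0.5 were called. So were 92% of 100 genes changed by 1.5, and 8 unchanged genes. Only 200 genes were changed there, while 57.7% of the genes were called for this comparison in the libraries. The Benjamini-Hochberg cut depends on that share, and the recovery of changed genes at the share seen in the libraries was not tested.

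The members and the lists (62 pathway genes, 15 replication, 10 mitosis, 12 monocytic and 18 other-cell markers) were chosen with earlier results of these data known. Named were all members, pathway genes called with a log2 fold change no smaller than 1 in any comparison, and the 3 genes most like each of the 3 members with the widest range. Alternatives were a pseudocount of 0.1, no filter, a mean of at least 5 FPKM, a replicate block, TPM, upper-quartile and quantile scaling, fits of just the libraries compared, the second rule, voom on recovered reads scaled to their totals, and leaving out each library. The repeat families in the table were not used here. Promoter sequences are from RefSeq GRCh38.p14, in which all 9 genes were found.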

Additional observations from a re-analysis of the deposited data

Results flagged for a closer look

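The DAC effect differed between the DAC-resistant and the parental cells by limma's interaction term for 4 of the 9 genes described and 31 of the 54 pathway genes tested, where 49.3% of all genes did. The pathway genes named here were chosen for a large change in some comparison. DNMT1 differed by -0.64 (adjusted p = 3.69e-05), with an effect of 0.25 in parental and -0.39 in DAC-resistant cells. UHRF1 differed by -0.34 (adjusted p = 0.000754), TET2 by -0.28 (adjusted p = 0.0216) and TDG by -0.26 (adjusted p = 0.0122). The call of TET2 was lost under 8 of 15 alternatives, all 3 rescalings among them (adjusted p = 0.0626 to 0.0764), and that of TDG under quantile and upper-quartile scaling (0.0624 and 0.0736). Among the partners, CDCA7 differed by 0.71 (adjusted p = 0.000185) and CDCA7L by 1.04 (adjusted p = 9.03e-05). MBD3 differed by -0.54 (adjusted p = 0.00829). IDH1 differed by 1.18 (adjusted p = 2.34e-06), with opposite effects of -0.80 in parental and 0.37 in DAC-resistant cells. WT1 differed by -1.31 (adjusted p = 0.000169) and PROSER1 by 0.38 (adjusted p = 0.00304). GADD45A differed by 0.37 (adjusted p = 0.0102) and AHCYL1 by 0.84 (adjusted p = 2.99e-05).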

How the results depend on the processing

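Of 45 tests of the 9 genes described, 25 passed. Of these, 16 kept direction and call under all alternatives that keep the threshold of an adjusted p under 0.05, up to 17 for each test. The other 9 lost the call under at least 1, and 7 of the 20 that did not pass did so in the same direction under some alternative. By the stricter rule 1 of the 25, TET1 between the lines with DAC, was called on log2(FPKM + 1). Of 36 calls among the 9 pathway genes named for a large change in these same libraries, 32 held under these alternatives and 4 did not. The cause was not tested. TET1 passed the filter only through its level in DAC-resistant cells, which helped to choose its calls between the lines. Those calls are counted among the 25 and the 16, and the fit with no filter is given with the gene.

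With DAC in parental cells, 3 of the 9 genes described instead of 5 were called under several settings. These were no filter, a mean of at least 5 FPKM, quantile and upper-quartile scaling, and just the libraries compared. The count was 3 to 4 when 1 library was left out. After quantile normalization the 3 were DNMT1 and TET2 higher and TET1 lower, and after upper-quartile scaling DNMT1 and TET2 higher and UHRF1 lower. A mean of at least 5 FPKM leaves fewer genes to test, and with DAC in both lines it left 4 calls instead of 7. By the stricter rule, 0 of the 9 genes were called for DAC in parental cells, 0 for DAC in DAC-resistant cells, 0 between the lines with DMSO, 1 between the lines with DAC and 0 for the difference, and 2, 0, 2, 7 and 3 pathway genes. Without a minimum change, limma called 5, 3, 6, 7 and 4 of the 9 genes. For DAC in DAC-resistant cells, 17 pathway genes became 8 with no filter, 5 with just the libraries compared, 28 with voom, and 5 to 13 when 1 library was left out. Shares of all genes called are given for the main fit only. Changes of these counts thus cannot be told apart from changes over all genes.

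Reversed in sign in TPM were DNMT3B (0.014) with DAC in DAC-resistant cells, DNMT3A (0.017) between the lines with DMSO, and UHRF1 (0.034) and TDG (0.027) between them with DAC. With DAC in parental cells, UHRF1 became -0.051 with quantile and -0.087 with upper-quartile scaling (limma adjusted p = 0.0375), and TET3 -0.036 and -0.048. Between the lines with DMSO, DNMT1 became -0.028 and -0.025, and the difference for DNMT3A 0.022 and 0.0086. Leaving out 1 library gave -0.10 to 0.083 for DNMT3B and -0.015 to 0.11 for TET1 (DAC in DAC-resistant cells), and -0.026 to 0.073 for the difference of MBD2.

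The replicate numbers did not pair the samples: deviations of same-numbered libraries correlated by -0.022 to 0.020 over 14899 genes. With the replicate number as a block, 4, 2, 6, 5 and 4 of the 9 genes described were called, in the order above. The calls lost were MBD2 (limma adjusted p = 0.0619), TET3 (0.0743), UHRF1 (0.0507) and DNMT3B (0.0515). The shares of all genes called with the block are not given. Depth limits TET1 most in parental libraries, with 65 to 156 reads, and DNMT3B in DAC-resistant ones, with 412 to 469.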
